A study of Homo sapiens with 6 samples.

Results

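The receptors described here are 41 human genes of the nuclear receptor family, listed by name and without the receptors of the steroid hormones, out of the 61279 genes to which reads were summed. All RNA-seq libraries are labelled as T47D, a line of hormone receptor–positive breast cancer cells, with a wild type genotype and growth in RPMI medium with serum, although the libraries labelled DMSO went against this label. In 3 libraries the cells are labelled as treated with 4 µM MI-503 for 24 hours, and in the other 3 as treated with the solvent DMSO for 24 hours. MI-503 is a small molecule that keeps menin from binding MLL1, a histone methyltransferase that works with it. The 3 libraries of each label are numbered as biological replicates, so p-values measure the spread between such replicates.

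Nuclear receptors are transcription factors that bind short DNA motifs through a zinc finger domain and, in many members, change their activity when a small lipid-soluble ligand binds. Receptors for thyroid hormone, retinoic acid, vitamin D, fatty acids and oxysterols usually bind DNA as a pair with a retinoid X receptor, holding corepressors without ligand and coactivators with it. Orphan receptors have no agreed natural ligand, and outside the steroid receptors the family is best known in breast epithelium for the retinoid and vitamin D receptors, whose ligands slow growth and favor differentiation.

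The libraries labelled DMSO went against that label in the genes that define the cells, and this touches every value that follows. Estimated reads per library ranged from 17404736 to 22168525, and levels are given as CPM, reads scaled to library size with TMM factors, with libraries in the order of replicates 1, 2 and 3. ESR1, the estrogen receptor gene, had 210, 240 and 296 CPM in the libraries labelled MI-503, against 0, 0.194 and 0 CPM in those labelled DMSO. KLK3, which encodes prostate-specific antigen, had no read with the MI-503 label, against 3762, 3687 and 3673 CPM with the DMSO label. Of 22 luminal breast markers tested, 19 were higher and 1 lower with the MI-503 label, with a summed level of 15820 to 22340 CPM against 2218 to 2618 CPM with the DMSO label. All 17 prostate markers tested of 19 listed were lower, and 5 of those listed had no read with MI-503, with a summed level of 184 to 190.4 CPM with MI-503, against 7251 to 9151 CPM with DMSO. Of the other cell types listed, mesenchymal markers summed to 113 to 165 CPM with MI-503, against 42.5 to 71.4 CPM with DMSO, and blood cell markers to 4.34 to 6.64 CPM with MI-503, against 1.22 to 2.92 CPM with DMSO. Most of the mesenchymal sum was COL1A1, with a mean of 96.1 CPM with MI-503 and 36.1 CPM with DMSO. Of the 5 mesenchymal markers tested, 3 were higher, 1 was lower and 1 did not pass. The libraries labelled DMSO lack the defining marker of the labelled cell type, so a response to MI-503 and a difference in the cells sampled cannot be told apart. In such bulk RNA, fewer cells of a type and less RNA per cell cannot be told apart either.

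RARA, RARG and NR5A2 had some of the highest fold changes among the receptors that were higher with the MI-503 label, while NR2C2 was lower, and PPARG, RARB and HNF4G had reads chiefly with the DMSO label. Of the 41 receptors, 28 had enough reads to be tested and 13 did not, of which 5 had no read in any library. By edgeR's quasi-likelihood test with Benjamini-Hochberg adjustment at an adjusted p under 0.05, 12 were higher with the MI-503 label, 4 were lower and 12 did not pass. That is 42.86% higher and 14.29% lower among the tested receptors, against 31.7% higher and 31.2% lower among all 16442 genes tested. With a log2 fold change beyond 2 as well, 5 receptors were higher and 3 lower, beside 12.6% and 11.7% of all genes tested. The median log2 fold change of the tested receptors was 0.52, against −0.0044 over all genes tested. Of the 28, 19 had CPM that did not overlap between the labels, 14 of them higher with MI-503, where 68.7% of all genes did not overlap and 34.7% were higher and 34% lower in this way. RARB, PPARG, HNF4G and NR2E3 had every library of 1 label under the filter level of 0.4906 CPM, so they passed the filter only through the label with which they were high and had to differ, and their adjusted p are no support for the difference. RORA, NR1I3, NR2F1 and NR5A2 had some library under that level. Of these, NR1I3 and NR5A2 were called and passed the filter only through the MI-503 label, so their adjusted p are no support either. The counts over tested receptors are a description only. Fold changes are given with their standard errors (SE).

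**Figure D1:**
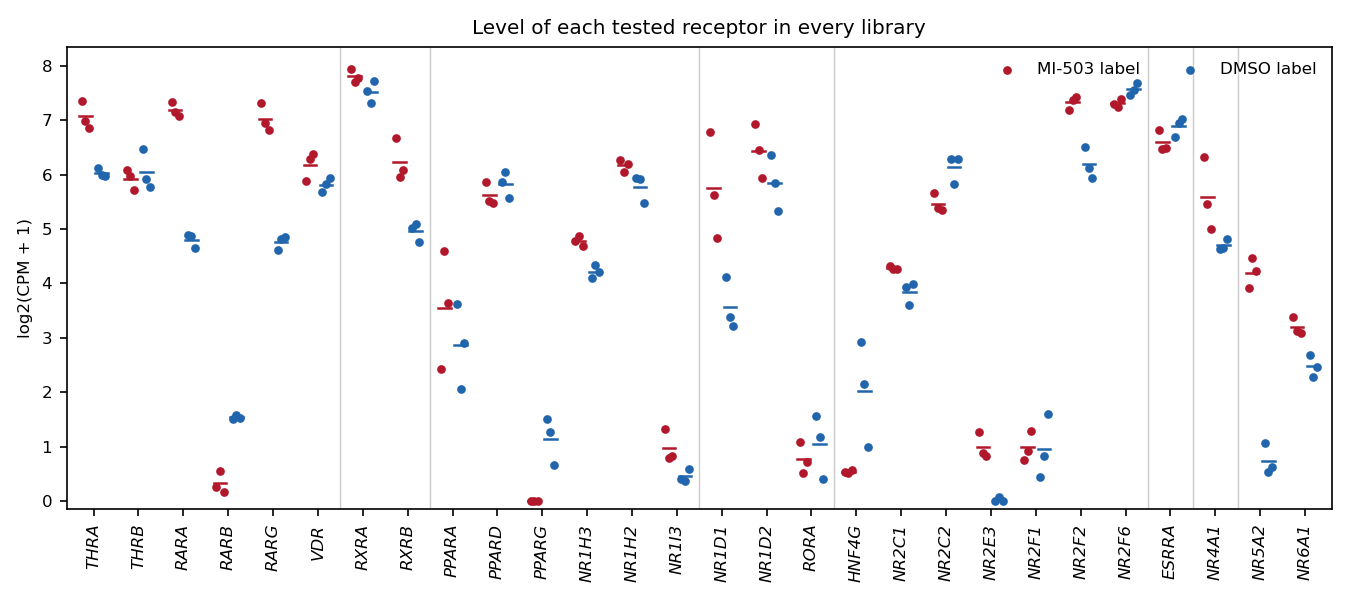
Level of the 28 tested receptors as log2(CPM + 1), grouped by role, in each of the 3 libraries labelled MI-503 (red) and the 3 labelled DMSO (blue); a point is 1 library and a line the mean of 3. RARA spans 135 to 161 CPM in libraries labelled MI-503 and 24.1 to 28.7 CPM in those labelled DMSO, while the points of PPARD overlap at 43.7 to 57.2 CPM (MI-503) and 46.4 to 64.8 CPM (DMSO).

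**Figure D2:**
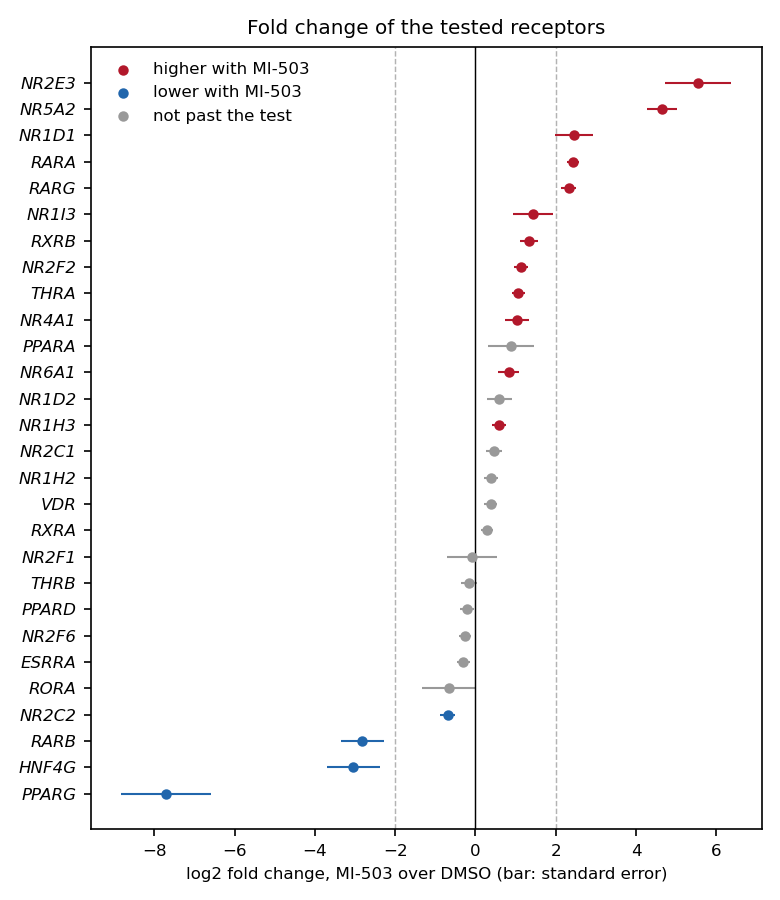
Log2 fold change of each tested receptor, MI-503 label over DMSO label, with its standard error as a bar; dashed lines mark a log2 fold change of 2 in either direction. NR2E3 at 5.55 and NR5A2 at 4.65 lie farthest to the right and PPARG at −7.70 farthest to the left, and the fitted values of NR2E3 and PPARG rest on 1 and 0 reads in their low group.

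Levels of different genes were set against each other only as TPM, which salmon scales by transcript length. With the MI-503 label the order began with NR2F6 at 81.4 TPM, RARG at 76.8, RARA at 69.0, ESRRA at 66.9, NR2F2 at 54.8 and RXRA at 49.8, and the ranges of each pair of neighbors in this order overlapped. With the DMSO label it began with NR2F6 at 99.9 TPM, ESRRA at 79.2, RXRA at 43.6, NR1H2 at 42.7, NR2F2 at 42.2 and THRA at 26.1. There NR2F6 and ESRRA did not overlap with each other, nor ESRRA with RXRA, while the next neighbors did. RARG and RARA thus stood at places 2 and 3 with the MI-503 label and at places 15 and 16, with 16.3 and 13.8 TPM, with the DMSO label. The 41 receptors summed to 870, 722 and 679 TPM in the libraries labelled MI-503, against 614, 522 and 510 TPM in those labelled DMSO.

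Of the retinoic acid receptors, the alpha and gamma genes were higher with the MI-503 label and the beta gene was lower. RARA, which encodes the alpha receptor of all-trans retinoic acid and is a known estrogen-induced gene in breast cancer cells, had 161, 141 and 135 CPM in the libraries labelled MI-503, against 28.7, 28.3 and 24.1 CPM in those labelled DMSO. Every library labelled MI-503 lay above every library labelled DMSO, with a log2 fold change of 2.43 ± 0.16 SE (edgeR adjusted p = 1.05e-06). RARG, the gamma receptor, had 159, 122 and 112 CPM with MI-503, against 23.6, 27.3 and 27.9 CPM with DMSO. It did not overlap between the labels either (log2 fold change 2.32 ± 0.18 SE, edgeR adjusted p = 3.58e-06). RARB, the beta receptor and itself a classical target gene of retinoic acid, had 0.195, 0.471 and 0.119 CPM with MI-503, against 1.85, 1.98 and 1.87 CPM with DMSO. That gene was low everywhere and lower in each library labelled MI-503 (log2 fold change −2.82 ± 0.53 SE, edgeR adjusted p = 0.00104), from 15 reads in all with MI-503 and 123 with DMSO. RARB passed the filter only through the DMSO label, so its adjusted p is no support. Leaving out a library gave it log2 fold changes from −3.50, without MI-503 replicate 2, to −2.47, without MI-503 replicate 3.

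Summed over the 3 genes, retinoic acid receptor transcripts came to 168, 138 and 132 TPM with the MI-503 label, against 34.9, 30.5 and 28.7 TPM with the DMSO label. The make-up of this sum shifted in its smallest part, with RARB at 0.1% to 0.2% of it in libraries labelled MI-503, against 3.9% to 4.1% in those labelled DMSO. RARA took 43.7% to 50.1% with MI-503, against 38.2% to 47.1% with DMSO, so its share overlapped between the labels.

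RARA has several start sites, and its difference was shared between the main pair. Transcripts that start at or near position 40309180 on chromosome 17 (GRCh38), led by RARA-201, summed to 39.0, 33.4 and 26.0 TPM with MI-503, against 7.16, 6.54 and 5.71 TPM with DMSO. Those starting at or near 40318281, led by RARA-204, summed to 33.9, 33.3 and 35.3 TPM with MI-503, against 7.46, 6.46 and 3.75 TPM with DMSO. Both starts were above all DMSO values in every library labelled MI-503. A start farther downstream, at 40342363 (RARA-202), ran the other way, with 0.454, 0.886 and 1.15 TPM with MI-503, against 1.80, 1.11 and 1.50 TPM with DMSO, and its libraries overlapped. These transcript values were not tested, since the deposited estimates give no measure of how reads were shared between transcripts. The 300 bases around the first pair of RARA starts and around the main RARG start are printed because these were the receptors with the smallest adjusted p and the highest levels among those beyond a log2 fold change of 2. Each window from RefSeq (GRCh38.p14) runs 5′ to 3′ on the gene's strand, has 250 bases before the start site and 50 from it on, and carries in capitals the motifs that were searched for, the receptor core motif AGGTCA or the E-box CACGTG.
RARA first start, chr17:40308930-40309229, plus strand: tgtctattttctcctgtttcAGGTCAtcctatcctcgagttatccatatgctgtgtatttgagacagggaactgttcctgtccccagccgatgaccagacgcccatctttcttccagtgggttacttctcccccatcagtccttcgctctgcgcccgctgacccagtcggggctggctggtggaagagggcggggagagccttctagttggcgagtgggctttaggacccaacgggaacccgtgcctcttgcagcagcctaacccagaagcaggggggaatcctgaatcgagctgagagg
RARA next start, chr17:40317995-40318294, plus strand: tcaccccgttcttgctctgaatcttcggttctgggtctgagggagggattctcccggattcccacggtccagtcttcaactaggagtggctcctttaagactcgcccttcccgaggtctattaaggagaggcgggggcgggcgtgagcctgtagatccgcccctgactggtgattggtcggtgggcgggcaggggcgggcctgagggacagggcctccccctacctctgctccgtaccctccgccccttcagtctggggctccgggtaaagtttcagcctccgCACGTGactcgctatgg
RARG, chr12:53232160-53232459, minus strand: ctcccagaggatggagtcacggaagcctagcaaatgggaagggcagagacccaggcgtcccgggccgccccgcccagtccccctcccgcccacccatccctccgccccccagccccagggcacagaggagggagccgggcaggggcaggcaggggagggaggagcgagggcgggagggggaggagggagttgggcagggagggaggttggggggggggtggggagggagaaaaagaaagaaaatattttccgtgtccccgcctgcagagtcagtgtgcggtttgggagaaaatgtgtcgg
The first RARA window holds 1 AGGTCA at base 21 and 12 CG dinucleotides, the next holds 1 CACGTG at base 284 and 19 CG dinucleotides, and the RARG window holds neither motif and 14 CG dinucleotides. Searched on both strands, AGGTCA stood in 13.8% of all 35116 RefSeq windows of this length and in 13 of the 71 windows that 36 of the receptors have, and CACGTG in 7.26% of all windows and in 5 of the 71. TGACGTCA, the cyclic AMP response element, was found in 1.85% of all windows and in those of NR2E1 and NR6A1 among the receptors, and the direct repeat called DR1, 2 copies of AGGTCA on a strand with any single base between them, in 0.0228% of all windows and in no receptor window. Letters in a window describe the sequence and are no evidence of binding.

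**Figure D3:**
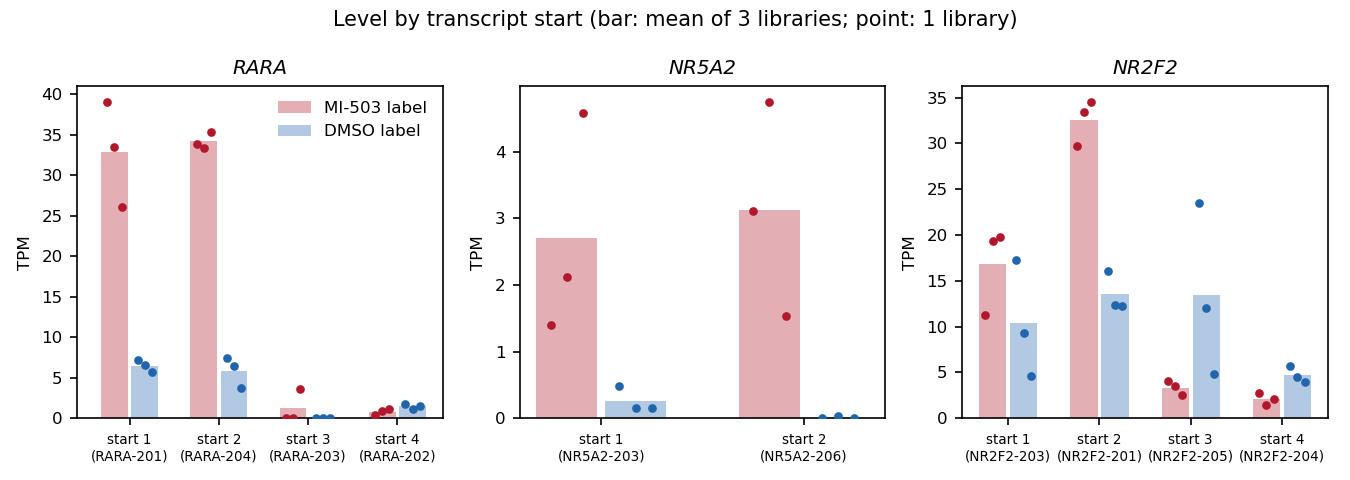
TPM summed by transcript start for RARA, NR5A2 and NR2F2 in libraries labelled MI-503 (red) and DMSO (blue); a bar is the mean of 3 libraries, a point is 1 library, and starts are in order along the strand with the leading transcript named. The first RARA starts have means of 32.8 and 34.2 TPM with MI-503, against 6.47 and 5.89 TPM with DMSO, and the third NR2F2 start, led by a short transcript, runs the other way with means of 3.34 TPM with MI-503 and 13.5 TPM with DMSO.

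Genes that supply, carry or break down retinoids, from a list of 26, had 6 higher and 4 lower members with the MI-503 label among 12 tested, with a median log2 fold change of 0.52. As 31.7% of all genes tested were higher and 31.2% lower, 62.9% in all, with a median near 0, the counts of this and the following lists describe their genes and set no list apart. CRABP2, which carries retinoic acid to the nucleus, had 1332, 1638 and 1380 CPM with MI-503, against 0.226, 0.678 and 1.09 CPM with DMSO (log2 fold change 11.08 ± 0.42 SE, edgeR adjusted p = 4.05e-08). DMSO replicate 1 lay under the filter level of 0.4906 CPM. CRABP2 thus passed the filter only through the MI-503 label, so its adjusted p is no support. ALDH1A3, which makes retinoic acid from retinal, had 2.53, 4.97 and 6.59 CPM with MI-503, against 69.1, 46.8 and 32.0 CPM with DMSO, and was lower in each library (log2 fold change −3.40 ± 0.38 SE, edgeR adjusted p = 4.09e-05). RDH10, which makes retinal from retinol, was lower as well, at 25.3 ± 2.68 CPM with MI-503 and 44.8 ± 8.52 CPM with DMSO (SD, n = 3 each; log2 fold change −0.83, edgeR adjusted p = 0.00366). DGAT1, which can esterify retinol, was higher and RARRES2, a retinoid-responsive gene that encodes chemerin, was lower, with log2 fold changes of 1.06 and −2.72 (edgeR adjusted p = 0.00108 and 0.00154). RARRES2 had every library labelled MI-503 under the filter level of 0.4906 CPM, so its adjusted p is no support. CRABP1, the other cellular binding protein, had 3.41, 4.08 and 3.86 CPM with MI-503 and no read with DMSO.

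The alpha receptor of thyroid hormone was higher with the MI-503 label and the beta receptor did not pass the test. THRA had 163, 126 and 115 CPM with MI-503, against 68.6, 62.9 and 61.4 CPM with DMSO. All libraries labelled MI-503 were above those labelled DMSO (log2 fold change 1.07 ± 0.17 SE, edgeR adjusted p = 3.66e-04). THRB had 66.5, 61.8 and 51.4 CPM with MI-503, against 87.3, 59.6 and 53.3 CPM with DMSO. Its libraries overlapped, with replicate 1 the highest of each label (log2 fold change −0.16 ± 0.21 SE, edgeR adjusted p = 0.54), and without DMSO replicate 1 the log2 fold change was 0.09. THRA took 69.0% to 73.4% of the summed TPM of this pair with MI-503, against 54.7% to 62.4% with DMSO. The ends of THRA and NR1D1 overlap by 1075 bases on opposite strands of chromosome 17, of which 146 to 263 bases are exonic in the main THRA transcripts. THRA also shares 2926 bases with MED24 on the opposite strand, a gene with 79.7 to 116 TPM with MI-503, against 64.1 to 80.6 TPM with DMSO. Transcripts of THRA with exonic bases in common with NR1D1 held 98.7% to 100% of its TPM with MI-503, against 88.5% to 94.1% with DMSO, and no strand setting for the quantification is given in the sources used here, so reads from the shared bases cannot be told apart.

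Of 10 tested genes that move, convert or respond to thyroid hormone, from a list of 12, 3 were higher and 5 lower, with a median log2 fold change of −0.63. HR, a corepressor of the thyroid hormone and vitamin D receptors, had 80.3, 78.3 and 93.9 CPM with MI-503, against 10.7, 9.49 and 6.15 CPM with DMSO (log2 fold change 3.26 ± 0.23 SE, edgeR adjusted p = 1.68e-06). SLC7A5, an amino acid transporter that also takes up thyroid hormone, was higher at 628 ± 111 CPM with MI-503 and 84.9 ± 48.7 CPM with DMSO (SD, n = 3 each; log2 fold change 2.89, edgeR adjusted p = 2.38e-04). The transporter SLC16A10 was lower (log2 fold change −4.58, edgeR adjusted p = 7.65e-07). DIO3, which inactivates the hormone, had no read with MI-503, against 3.44, 2.08 and 1.41 CPM with DMSO.

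VDR, the vitamin D receptor, had 58.0, 76.9 and 81.7 CPM with the MI-503 label, against 50.3, 55.5 and 60.6 CPM with the DMSO label. MI-503 replicate 1 lay within the DMSO values and the test was not passed (log2 fold change 0.38 ± 0.17 SE, edgeR adjusted p = 0.0807), while without that library the log2 fold change was 0.56 with an adjusted p of 0.0184. Of 5 tested genes of vitamin D handling and response, from a list of 12, 3 were higher and 2 did not pass, with a median log2 fold change of 1.09. CYP27B1, which makes the active hormone, had 8.19, 6.01 and 5.70 CPM with MI-503, against 1.13, 0.823 and 1.69 CPM with DMSO (log2 fold change 2.44 ± 0.37 SE, edgeR adjusted p = 2.86e-04). TRPV6, a calcium channel induced by vitamin D in the gut, had 152, 71.7 and 86.0 CPM with MI-503, against 57.0, 37.7 and 50.4 CPM with DMSO (log2 fold change 1.09, edgeR adjusted p = 0.00635). CYP27A1, which adds a hydroxyl group to vitamin D and to cholesterol, had 3.33 to 4.24 CPM with MI-503, against 0 to 0.137 CPM with DMSO.

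The retinoid X receptors are the partners with which many of the other receptors bind DNA. RXRA, the alpha receptor, had 246, 207 and 219 CPM with the MI-503 label, against 184, 159 and 209 CPM with the DMSO label. Its libraries overlapped and it did not pass the test (log2 fold change 0.29 ± 0.16 SE, edgeR adjusted p = 0.135). RXRB, the beta receptor, had 101, 60.9 and 66.8 CPM with MI-503, against 31.4, 33.1 and 26.0 CPM with DMSO. Here the labels did not overlap (log2 fold change 1.34 ± 0.22 SE, edgeR adjusted p = 4.22e-04). RXRB made up 39.7% to 51.8% of the summed retinoid X receptor TPM with MI-503, against 25.2% to 32.3% with DMSO, and in MI-503 replicate 1 it exceeded RXRA, at 57.0 against 52.8 TPM. RXRB shares 361 bases with SLC39A7 on the opposite strand, a gene with 190 to 262 TPM with MI-503, against 88.7 to 101 TPM with DMSO. RXRG, the gamma receptor, had 2 reads in all with MI-503 and 1 with DMSO and was not tested.

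**Figure D4:**
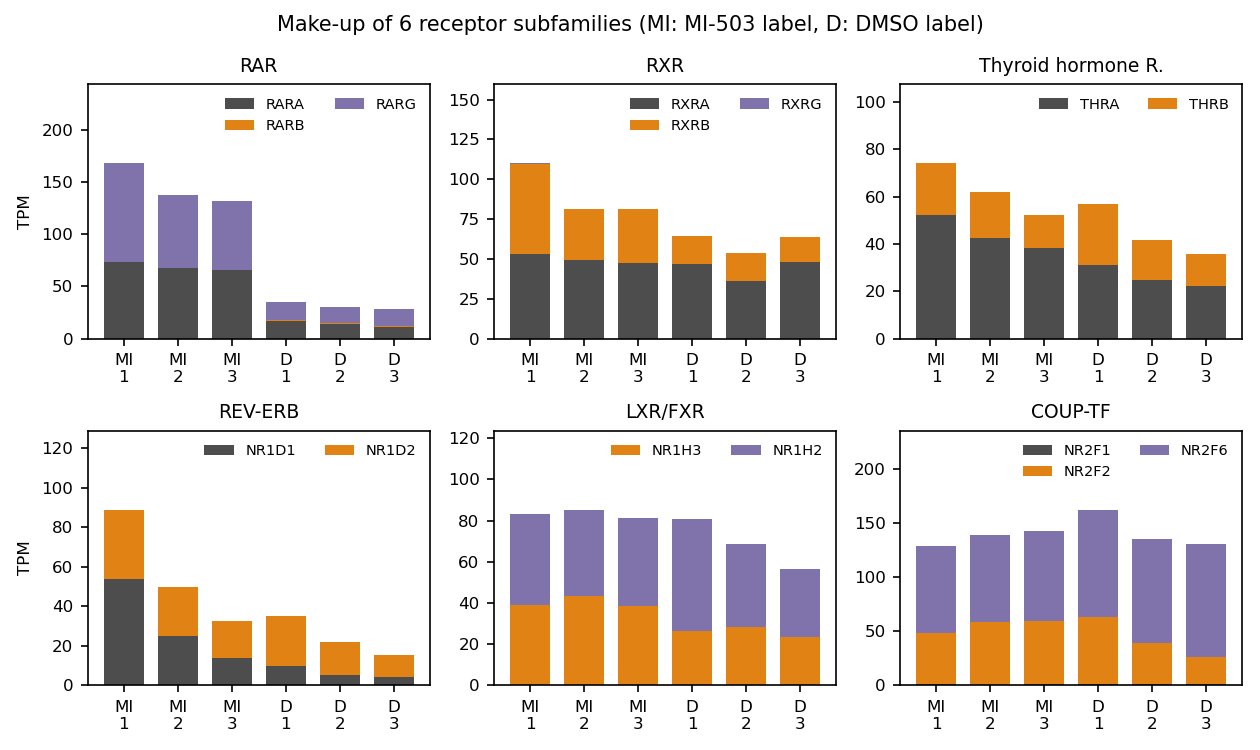
Stacked TPM of the members of 6 receptor subfamilies in each library, with libraries labelled MI-503 (MI) on the left of each panel and those labelled DMSO (D) on the right. Retinoic acid receptors sum to 132 to 168 TPM with MI-503 and to 28.7 to 34.9 TPM with DMSO, while the COUP-TF subfamily sums to 129 to 143 TPM with MI-503 and 131 to 162 TPM with DMSO.

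Among sensors of lipids and foreign compounds, PPARG was lower, NR1H3 and NR1I3 were higher, and PPARA, PPARD and NR1H2 did not pass the test. PPARG, the fatty acid–activated receptor that drives fat cell differentiation, had no read in any library labelled MI-503, against 1.85, 1.40 and 0.593 CPM, or 83 reads in all, with the DMSO label. It was at least 24.1-fold lower with MI-503, counting 3 reads over the group as the limit of detection (adjusted p = 5.04e-04 from edgeR), and such limits cover counting error only. PPARG passed the filter only through the DMSO label, so this adjusted p is no support. PPARD, the delta receptor, had 57.2, 45.0 and 43.7 CPM with MI-503, against 57.3, 64.8 and 46.4 CPM with DMSO, and overlapped between the labels (log2 fold change −0.21 ± 0.18 SE, edgeR adjusted p = 0.346). PPARA, which raises fatty acid oxidation in liver, had 4.39, 23.1 and 11.5 CPM with MI-503, against 11.4, 3.15 and 6.52 CPM with DMSO. This spread within each label was wider than the difference between them (log2 fold change 0.89 ± 0.58 SE, edgeR adjusted p = 0.205), and without MI-503 replicate 1 it was 1.35 with an adjusted p of 0.0413, against 0.21 without MI-503 replicate 2. PPARD made up most of the summed TPM of these 3 genes in every library, at 76.8% to 91.2% with MI-503, against 80.1% to 88.1% with DMSO.

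Both liver X receptors, the sensors of oxysterols, were detected in all libraries. NR1H3, which encodes the alpha receptor, had 26.4, 28.1 and 24.7 CPM with MI-503, against 16.1, 19.3 and 17.5 CPM with DMSO. The labels did not overlap (log2 fold change 0.58 ± 0.17 SE, edgeR adjusted p = 0.0140), and without MI-503 replicate 2, the highest, the log2 fold change was 0.57 with an adjusted p of 0.0530. NR1H2, the beta receptor, had 76.4, 65.3 and 72.6 CPM with MI-503, against 60.5, 59.2 and 43.7 CPM with DMSO. It did not overlap in CPM and did not pass the test (log2 fold change 0.39 ± 0.17 SE, edgeR adjusted p = 0.0702), whereas without DMSO replicate 1 the adjusted p was 0.0468 at a log2 fold change of 0.47. NR1H3 made up 46.6% to 51.0% of the summed TPM of this subfamily with MI-503, against 32.3% to 41.8% with DMSO. NR1I3, the constitutive androstane receptor of drug metabolism, was low, with 1.51, 0.732 and 0.772 CPM with MI-503, against 0.317, 0.290 and 0.501 CPM with DMSO. The labels did not overlap (log2 fold change 1.43 ± 0.50 SE, edgeR adjusted p = 0.0297), from 58 reads in all with MI-503 and 24 with DMSO. DMSO replicates 1 and 2 lay under the filter level of 0.4906 CPM. NR1I3 thus passed the filter only through the MI-503 label, so its adjusted p is no support. NR1I3 shares 1081 bases with TOMM40L on the opposite strand, a gene with 25.2 to 30.1 TPM with MI-503, against 15.6 to 20.5 TPM with DMSO. Leaving out MI-503 replicate 1, DMSO replicate 1 or DMSO replicate 2 gave log2 fold changes of 1.06, 1.33 and 1.29 for NR1I3, with adjusted p of 0.127, 0.0947 and 0.113.

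Target genes of these sensors had calls in both directions, as had all genes tested (31.7% higher, 31.2% lower). Of 14 tested genes known as PPAR targets, from a list of 21, 7 were higher and 5 lower with the MI-503 label, with a median log2 fold change of 0.74. UCP2, a mitochondrial carrier, had 189, 214 and 239 CPM with MI-503, against 0.0452, 0.194 and 0 CPM with DMSO (log2 fold change 11.32 ± 0.41 SE, edgeR adjusted p = 3.12e-08). ANGPTL4, an inhibitor of lipoprotein lipase, and PLIN2, which coats lipid droplets, were higher too, with log2 fold changes of 5.93 and 6.98 (adjusted p = 1.87e-06 and 2.46e-06 from edgeR). UCP2, ANGPTL4 and PLIN2 had every library labelled DMSO under the filter level of 0.4906 CPM, so their adjusted p are no support. The fatty acid oxidation enzymes ACADM and ACADVL were lower, with log2 fold changes of −1.99 and −1.06 (adjusted p = 8.04e-06 and 7.08e-04 from edgeR).

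Of 10 tested targets of the liver X receptors and of NR1H4, from a list of 19, 2 were higher and 4 lower, with a median log2 fold change of 0.45. APOE, which carries lipid out of cells, had 438, 437 and 563 CPM with MI-503, against 0.0452, 0.678 and 0.410 CPM with DMSO (log2 fold change 10.31 ± 0.45 SE, edgeR adjusted p = 8.49e-08). DMSO replicates 1 and 3 lay under the filter level of 0.4906 CPM. APOE thus passed the filter only through the MI-503 label, so its adjusted p is no support. The other higher target, PLTP, a phospholipid transfer protein, had 3.07, 1.57 and 2.79 CPM with MI-503, against 0, 0 and 0.137 CPM with DMSO. SREBF1, the regulator of fatty acid synthesis, had 240.5, 131 and 145 CPM with MI-503, against 612, 732 and 433 CPM with DMSO, and was lower in each library (log2 fold change −1.78 ± 0.27 SE, edgeR adjusted p = 2.78e-04). LPCAT3, which remodels membrane phospholipids, was lower as well (log2 fold change −3.12, edgeR adjusted p = 1.58e-06), and so was SMPDL3A, a phosphodiesterase induced by these receptors (log2 fold change −2.15, edgeR adjusted p = 2.47e-04).

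Genes that the xenobiotic sensors NR1I2 and NR1I3 are known to induce were tested in few cases. Of 7 tested, from a list of 15, 2 were higher and 4 lower, with a median log2 fold change of −1.90. GSTA1, a glutathione transferase, had no read with MI-503, against 15.3, 18.4 and 10.3 CPM with DMSO, and the drug-oxidizing enzyme CYP2C19 had none either, against a mean of 3.87 CPM with DMSO. ABCC3, an organic anion exporter, had 23.8, 18.1 and 15.6 CPM with MI-503, against 0, 0.0484 and 0.593 CPM with DMSO (log2 fold change 6.43 ± 0.70 SE, edgeR adjusted p = 3.26e-05). DMSO replicates 1 and 2 lay under the filter level of 0.4906 CPM. ABCC3 thus passed the filter only through the MI-503 label, so its adjusted p is no support. POR, which passes electrons to cytochrome P450 enzymes, was higher by a log2 fold change of 0.53 (adjusted p = 0.0150 from edgeR).

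In the circadian clock, NR1D1 and NR1D2 encode the REV-ERB repressors of BMAL1, and the ROR genes the activators that compete with them. NR1D1 had 109, 48.4 and 27.7 CPM in the libraries labelled MI-503, against 16.3, 9.39 and 8.25 CPM in those labelled DMSO. The labels did not overlap, though MI-503 replicates 1 and 3 lay far apart (log2 fold change 2.45 ± 0.47 SE, edgeR adjusted p = 0.00118), and without MI-503 replicate 1 the log2 fold change was 1.80 with an adjusted p of 0.00186. NR1D2 had 121, 86.1 and 60.2 CPM with MI-503, against 81.2, 56.3 and 39.3 CPM with DMSO. Its libraries overlapped and it did not pass the test (log2 fold change 0.60 ± 0.30 SE, edgeR adjusted p = 0.108), although without MI-503 replicate 3 or DMSO replicate 1 the log2 fold change was 0.84 or 0.90, with adjusted p of 0.0329 and 0.0241. In both genes replicate 1 was the highest and replicate 3 the lowest of each label. NR1D1 made up 42.5% to 60.5% of the summed TPM of this pair with MI-503, against 22.6% to 27.5% with DMSO. RORA, the alpha receptor, was low, with 1.12, 0.418 and 0.653 CPM with MI-503, against 1.94, 1.26 and 0.319 CPM with DMSO. It overlapped between the labels (log2 fold change −0.67 ± 0.65 SE, edgeR adjusted p = 0.387), and without DMSO replicate 1 the log2 fold change was −0.10. RORB, the beta receptor, was not tested, and its 28 reads with MI-503 against 3 with DMSO gave a ratio of 10.7 on the CPM scale (exact 95% counting interval 3.30 to 55.0). With no filter its edgeR adjusted p was 0.00933. Every library labelled DMSO was under the filter level of 0.4906 CPM, and this value is a description only.

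The NR1D1 window is shown because a single start carried all its transcripts measured here and because this gene lies end to end with THRA. It holds 24 CG dinucleotides, where the median over all windows was 14, and none of the motifs searched for.
NR1D1, chr17:40100540-40100839, minus strand: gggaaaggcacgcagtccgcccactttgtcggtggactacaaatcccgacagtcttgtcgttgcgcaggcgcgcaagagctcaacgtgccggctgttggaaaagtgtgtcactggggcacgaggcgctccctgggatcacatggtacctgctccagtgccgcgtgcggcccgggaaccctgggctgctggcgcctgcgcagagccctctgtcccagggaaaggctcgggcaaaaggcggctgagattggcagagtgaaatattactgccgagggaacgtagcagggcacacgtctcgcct
Other clock genes, from a list of 19 that were all tested, were higher in 7 and lower in 4 cases, with a median log2 fold change of 0.28, beside 31.7% higher and 31.2% lower among all genes tested. BHLHE40, a repressor that binds E-boxes, had 412, 349 and 357 CPM with MI-503, against 114, 109.9 and 67.1 CPM with DMSO (log2 fold change 1.94 ± 0.21 SE, edgeR adjusted p = 3.53e-05). CRY2, a repressor of CLOCK and BMAL1, had 129, 77.5 and 61.2 CPM with MI-503, against 16.1, 12.1 and 19.8 CPM with DMSO (log2 fold change 2.48 ± 0.30 SE, edgeR adjusted p = 6.17e-05). PER3, a member of the same repressor complex, was higher too (log2 fold change 1.21, edgeR adjusted p = 1.67e-04). BMAL1 itself did not pass the test, at a mean of 9.22 CPM with MI-503 and 9.49 CPM with DMSO (log2 fold change −0.04 ± 0.22 SE, edgeR adjusted p = 0.882). BMAL2, a paralog of BMAL1, had 0.585, 0.994 and 0.832 CPM with MI-503, against 15.8, 18.3 and 15.7 CPM with DMSO, and was lower in each library (log2 fold change −4.37 ± 0.29 SE, edgeR adjusted p = 1.29e-06). BHLHE41, a paralog of BHLHE40, was also lower (log2 fold change −2.11, edgeR adjusted p = 0.00141). Its libraries labelled MI-503, at 0.390, 0.366 and 0.416 CPM, were all under the filter level of 0.4906 CPM, so this adjusted p is no support.

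The NR2 orphan receptors included the highest and some of the lowest levels of the family. NR2F2, or COUP-TFII, a regulator of vein and organ development, had 144, 165 and 172 CPM with the MI-503 label, against 89.4, 68.7 and 60.6 CPM with the DMSO label. In CPM the labels did not overlap (log2 fold change 1.14 ± 0.18 SE, edgeR adjusted p = 3.40e-04). In TPM they did, at 47.7, 57.7 and 58.9 with MI-503, against 62.6, 38.2 and 25.7 with DMSO, and with an offset for transcript length the log2 fold change was 0.50 (adjusted p = 0.117 from edgeR). Part of the TPM came from a short transcript of 382 bases at the third start, to which salmon gave 6.7, 6.4 and 3.4 reads with MI-503, against 41.5, 22.5 and 9.2 reads with DMSO. The main transcript, NR2F2-201, had 29.7, 33.4 and 34.5 TPM with MI-503, against 16.1, 12.3 and 12.2 TPM with DMSO, without overlap. NR2F6, a related orphan and the receptor with the highest mean TPM under both labels, had 156, 151 and 167 CPM with MI-503, against 176, 186 and 204 CPM with DMSO. Its libraries did not overlap, but the difference did not pass the test (log2 fold change −0.26 ± 0.14 SE, edgeR adjusted p = 0.131). NR2F1, or COUP-TFI, had 0.683, 0.889 and 1.43 CPM with MI-503, against 0.362, 0.775 and 2.01 CPM with DMSO, and overlapped (log2 fold change −0.08 ± 0.62 SE, edgeR adjusted p = 0.921), and the sign changed when MI-503 replicate 1, MI-503 replicate 2 or DMSO replicate 3 was left out, to 0.17, 0.02 and 0.80.

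The testicular receptors NR2C1 and NR2C2, which bind the same motifs as many partners of the retinoid X receptors, lay on opposite sides. NR2C1 had 19.0, 18.1 and 18.2 CPM with MI-503, against 14.2, 11.2 and 14.9 CPM with DMSO. It did not overlap between the labels and did not pass the test (log2 fold change 0.46 ± 0.19 SE, edgeR adjusted p = 0.0630), while without DMSO replicate 3 the log2 fold change was 0.54 with an adjusted p of 0.0435. NR2C2 had 49.6, 40.9 and 39.9 CPM with MI-503, against 77.4, 55.7 and 77.2 CPM with DMSO. Every library labelled MI-503 was below those labelled DMSO (log2 fold change −0.69 ± 0.18 SE, edgeR adjusted p = 0.00766). In TPM the values of NR2C2 overlapped, and with the transcript length offset the log2 fold change was −0.42 (adjusted p = 0.0785 from edgeR). Its transcripts that start at position 15003915 on chromosome 3, led by NR2C2-213, had 6.78, 5.28 and 5.53 TPM with MI-503, against 12.7, 8.50 and 11.8 TPM with DMSO, while those at its first start overlapped at 5.10 to 7.62 TPM with MI-503, against 6.14 to 8.04 TPM with DMSO. NR2C1 made up 54.1% to 60.8% of the summed TPM of the pair with MI-503, against 38.6% to 42.8% with DMSO. NR2C2 shares 43990 bases, introns included, with MRPS25 on the opposite strand, a gene with 59.4 to 89.4 TPM with MI-503, against 59.0 to 122 TPM with DMSO. It shares 842 bases with FGD5-AS1, also opposite, at 60.5 to 83.7 TPM with MI-503, against 49.9 to 65.4 TPM with DMSO. What these overlaps add to its reads was not tested.

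HNF4G, a relative of the liver receptor HNF4A with a role in gut epithelium, had 0.439, 0.418 and 0.475 CPM with the MI-503 label, against 6.60, 3.44 and 1.00 CPM with the DMSO label. It was lower in every library labelled MI-503 (log2 fold change −3.04 ± 0.66 SE, edgeR adjusted p = 0.00260), and without DMSO replicate 1 the log2 fold change was −2.31. HNF4G passed the filter only through the DMSO label, so its adjusted p is no support. HNF4A itself had no read in any library. Of 16 liver and gut markers 2 were tested, and their list summed to 251.1 to 373.9 CPM with MI-503, against 2.80 to 3.73 CPM with DMSO. SERPINA1 averaged 306 CPM with MI-503, against 0.607 CPM with DMSO, and so made up most of that sum with MI-503 but not with DMSO. VIL1, the other tested marker, ran the other way, at a mean of 0.0686 CPM with MI-503, against 1.01 CPM with DMSO. NR2E3, the photoreceptor-specific receptor, had 1.41, 0.837 and 0.772 CPM with MI-503, against 0, 0.0484 and 0 CPM with DMSO. Its 58 reads with MI-503 against 1 read with DMSO gave a ratio of 66.5 on the CPM scale (exact 95% counting interval 11.5 to 2670). It passed the filter only through the MI-503 label, so its adjusted p of 2.49e-04 from edgeR is no support. NR2E1, its closest relative in this list and a regulator of neural stem cells, had no read.

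Of the estrogen-related receptors, orphan receptors that raise mitochondrial genes together with PGC-1 coactivators, only ESRRA was tested. It had 112, 87.4 and 88.8 CPM with MI-503, against 102, 122 and 130 CPM with DMSO. The labels overlapped through MI-503 replicate 1 and the test was not passed (log2 fold change −0.30 ± 0.16 SE, edgeR adjusted p = 0.141). ESRRA shares 284 bases with TRMT112 on the opposite strand, a gene with 446 to 488 TPM with MI-503, against 210 to 445 TPM with DMSO. ESRRB had 1 read in all, and ESRRG had 12 reads with each label, in 3 libraries labelled MI-503 and 2 labelled DMSO. All 16 listed targets of these receptors, ESRRA itself among them, were tested, of which 2 were higher, 3 lower and 11 did not pass, with a median log2 fold change of −0.12. COX6C, a subunit of cytochrome c oxidase, was higher (log2 fold change 0.86, edgeR adjusted p = 0.00268), and so was PDK4, which slows pyruvate oxidation, with 4.29, 5.23 and 3.27 CPM with MI-503, against 0, 0 and 0.0912 CPM with DMSO. TFAM, which packs and transcribes mitochondrial DNA, was lower (log2 fold change −0.74, edgeR adjusted p = 0.00106), as were IDH3A of the citric acid cycle and ATP5MC1 of the ATP synthase at −0.42 and −0.61 (adjusted p = 0.0393 and 0.0454 from edgeR).

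The NR4A receptors are immediate early genes that appear within minutes to hours of many stimuli. NR4A1, also called NUR77, had 78.8, 42.7 and 31.0 CPM with the MI-503 label, against 23.7, 24.1 and 27.2 CPM with the DMSO label. The labels did not overlap, and MI-503 replicate 1 stood well above the other two (log2 fold change 1.03 ± 0.30 SE, edgeR adjusted p = 0.0131). Without that library the log2 fold change was 0.61 (edgeR adjusted p = 0.0303). In TPM replicate 3 with MI-503, at 16.96, lay within the 15.8 to 17.9 TPM of the libraries labelled DMSO. NR4A2 had 1.95, 0.942 and 0.416 CPM with MI-503, against 0.136, 0.145 and 0.137 CPM with DMSO, and was removed by the filter. With no filter it had a log2 fold change of 2.97 ± 0.75 SE (edgeR adjusted p = 5.44e-04), on 65 reads with MI-503 and 9 with DMSO. Every library labelled DMSO was under the filter level of 0.4906 CPM, and this value is a description only. NR4A3 had 23 reads with MI-503 and 9 with DMSO and overlapped between the labels. In each of the 3 genes replicate 1 was the highest and replicate 3 the lowest of the libraries labelled MI-503.

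NR5A2, or LRH-1, a phospholipid-binding receptor of liver, pancreas and embryonic cells that also raises aromatase in breast tissue, had 14.04, 21.0 and 17.6 CPM with the MI-503 label, against 1.09, 0.436 and 0.547 CPM with the DMSO label. Each library labelled MI-503 was far above each labelled DMSO (log2 fold change 4.65 ± 0.37 SE, edgeR adjusted p = 4.25e-06), from 986 reads in all with MI-503 and 45 with DMSO. DMSO replicate 2 lay under the filter level of 0.4906 CPM. NR5A2 thus passed the filter only through the MI-503 label, so its adjusted p is no support. In TPM NR5A2 ranked at place 19 of the 41 with MI-503, at 5.90 TPM, and at place 27 with DMSO, at 0.278 TPM. Its transcripts fell on 2 main starts on chromosome 1. Those from 200027614 to 200027883, led by NR5A2-203, summed to 1.40, 2.12 and 4.58 TPM with MI-503, against 0.492, 0.155 and 0.161 TPM with DMSO. The single transcript from 200042825, NR5A2-206, had 3.11, 4.75 and 1.54 TPM with MI-503, against 0, 0.0329 and 0 TPM with DMSO. Both starts were higher in every library labelled MI-503, and which of them led differed between replicates, with the downstream start ahead in replicates 1 and 2 and the upstream one in replicate 3. RefSeq windows near these starts are shown because NR5A2 had the highest fold among receptors with more than 3 reads in both labels, and the downstream window ends before the start of NR5A2-206.
NR5A2 upstream start, chr1:200027460-200027759, plus strand: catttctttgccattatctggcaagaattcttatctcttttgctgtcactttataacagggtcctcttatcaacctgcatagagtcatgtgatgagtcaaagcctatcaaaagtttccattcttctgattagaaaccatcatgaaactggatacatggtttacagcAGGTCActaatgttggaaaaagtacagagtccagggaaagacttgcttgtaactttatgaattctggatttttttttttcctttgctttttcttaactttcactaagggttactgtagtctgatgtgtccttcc
NR5A2 downstream start, chr1:200042341-200042640, plus strand: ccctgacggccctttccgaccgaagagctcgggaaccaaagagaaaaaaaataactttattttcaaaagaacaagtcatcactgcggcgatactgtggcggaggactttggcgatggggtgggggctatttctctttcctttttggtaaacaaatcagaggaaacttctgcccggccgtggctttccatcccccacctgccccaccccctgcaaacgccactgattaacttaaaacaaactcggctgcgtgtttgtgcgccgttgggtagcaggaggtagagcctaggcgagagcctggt
The upstream window has 1 AGGTCA at base 167 and no CG dinucleotide, and the downstream window has none of the motifs searched for and 16 CG dinucleotides.

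NR6A1, the germ cell nuclear factor that represses pluripotency genes in embryos, had 9.36, 7.74 and 7.54 CPM with MI-503, against 5.43, 3.87 and 4.51 CPM with DMSO. The labels did not overlap (log2 fold change 0.83 ± 0.26 SE, edgeR adjusted p = 0.0189), while without DMSO replicate 2 the log2 fold change was 0.72 with an adjusted p of 0.0754. NR5A1, the steroidogenic factor of adrenal and gonad, had no read with MI-503 and 4 reads in DMSO replicate 1. NR0B1 and NR0B2, which lack the DNA-binding domain and repress other receptors, had no read in any library, nor had NR1H4, the bile acid receptor. NR1I2, the pregnane X receptor, had 1 read in DMSO replicate 1. For a gene without a read, 3 reads over the group allow up to 0.0531 CPM with MI-503 and 0.0464 CPM with DMSO.

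Coregulators that bind these receptors were tested from lists of 24 coactivators and 15 corepressors. Among the coactivators 10 were higher, 6 lower and 8 did not pass, with a median log2 fold change of 0.08, and among the corepressors 3 were higher, 6 lower and 6 did not pass, with a median of −0.21, beside 31.7% higher and 31.2% lower among all genes tested. NCOA3, a p160 coactivator often amplified in breast cancer, had 218, 159 and 142 CPM with MI-503, against 37.7, 32.3 and 28.5 CPM with DMSO (log2 fold change 2.40 ± 0.20 SE, edgeR adjusted p = 5.88e-06). MED14, the scaffold of the Mediator complex, and PPARGC1A, which encodes PGC-1 alpha, were higher with log2 fold changes of 1.52 and 2.07 (adjusted p = 3.12e-05 and 5.70e-04 from edgeR). NCOA1, another p160 coactivator, the arginine methyltransferase PRMT1 and NCOA7 were lower, with log2 fold changes of −1.34, −1.54 and −1.94 (adjusted p = 4.30e-05, 1.28e-05 and 1.20e-04 from edgeR). NCOR1, the corepressor held by unliganded thyroid hormone and retinoic acid receptors, had 81.8, 82.1 and 83.5 CPM with MI-503, against 313, 258 and 294 CPM with DMSO. It was lower in every library (log2 fold change −1.80 ± 0.14 SE, edgeR adjusted p = 4.19e-06). The deacetylases HDAC2 and HDAC1, which act in corepressor complexes, were lower at −1.56 and −0.95 (adjusted p = 2.23e-05 and 2.72e-04 from edgeR), and the scaffolds SIN3A and RCOR1 were higher at 0.87 and 0.75 (adjusted p = 6.61e-04 and 0.00671 from edgeR).

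**Figure D5:**
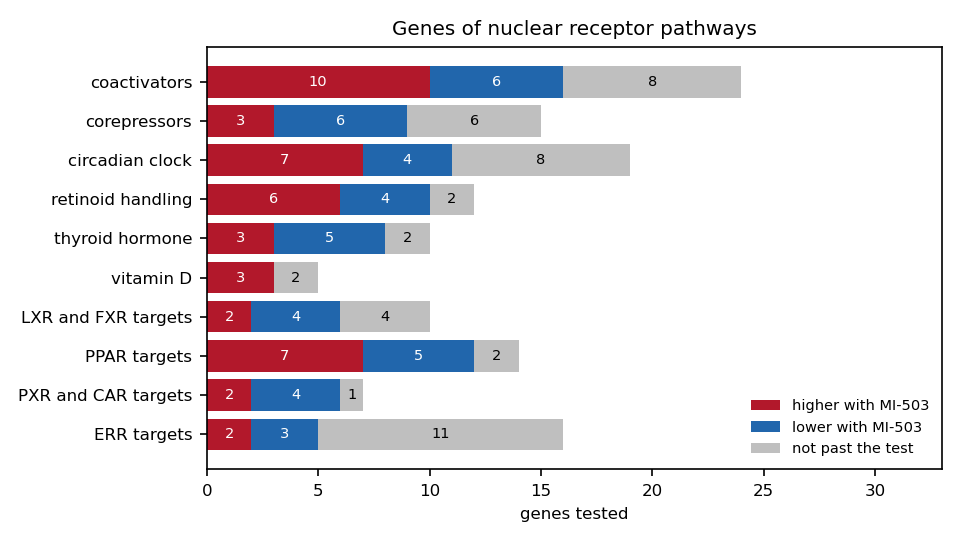
Number of tested genes of 10 lists of nuclear receptor coregulators, handling genes and targets that were higher (red), lower (blue) or not past edgeR's test (gray) with the MI-503 label against the DMSO label. Coactivators had 10 higher and 6 lower genes and corepressors 3 and 6, and targets of the estrogen-related receptors had 11 of 16 genes that did not pass.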

How the data were processed

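RNA of 6 libraries labelled as T47D was sequenced, and the authors quantified transcripts with salmon on Illumina DRAGEN. The authors deposited estimated counts for each transcript, as salmon gave them, without normalization. The same deposited files hold TPM, which the authors obtained from salmon by scaling counts within a library to effective transcript length, and that effective length in bases. The submitters' processing notes name the builds hg38 and GRCh38.p13. Not given in the sources used here were salmon's version and options, the annotation release and the strand setting.

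Of 232117 transcripts, 229321 (98.8%) were matched by identifier to GENCODE release 44, with at least 99.16% of the reads in each library. Sums were taken over 61279 genes and rounded. The libraries held 22168525, 19922625 and 17404736 reads with the MI-503 label, against 21687991, 19798053 and 21165491 with the DMSO label, and mitochondrial genes took 1.38% to 7.18%. Genes kept by filterByExpr (16442) were scaled by TMM (factors 0.934 to 1.05) and tested by edgeR 4.0.16 in R 4.3.3 with the quasi-likelihood test and Benjamini-Hochberg adjustment over all of them, from the label alone. A call was an adjusted p under 0.05, and a second rule added a log2 fold change beyond 2. Standard errors are the log2 fold change divided by the square root of F. CPM are TMM-scaled. Counting intervals are exact at 95%, and intervals and the floor of 3 reads over a group (0.0531 CPM for MI-503 and 0.0464 CPM for DMSO) cover counting error only. TPM, transcript starts (joined within 500 bases) and promoter windows from RefSeq (GRCh38.p14; 250 bases before to 50 after a start) were described without a test. The fitting code was tested on simulated data.

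The members, the 10 lists of pathway genes and the marker lists were chosen with earlier results of these data known. All 41 receptors are named, with ESR1 and KLK3 as checks of the label and, from each list, up to 3 genes per direction with the smallest adjusted p among genes that averaged 1 CPM or more in the higher group. Some genes that this rule takes are not reported here. SERPINA1, VIL1, COL1A1 and BMAL1 were named after their values were seen. Alternatives tried were upper-quartile and RLE scaling, totals without mitochondrial genes, no filter, a filter of at least 1 CPM in 3 libraries, DESeq2 1.42.0, limma-voom (limma 3.58.1), an offset for transcript length, the replicate number as a block, and each library left out in turn. A description of DNA-binding domains was planned and is not analysed here.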

Additional observations from a re-analysis of the deposited data

How the results depend on the processing

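Over 15 alternative settings, 387 of the 416 values for the 28 tested receptors kept their direction and their side of the threshold, and 15 receptors did so in every setting that could be run. The number of receptors called higher was between 10 and 15, and the number lower 3 or 4. With a library left out, 11 to 15 were higher and 4 lower. At 1 CPM or more in 3 libraries, NR1I3, NR2E3, NR2F1 and PPARG were not tested. Upper-quartile scaling moved the median of all genes by −0.097, the widest shift among the scalings. The sign turned for THRB with the length offset (0.09) and without DMSO replicate 1 (0.09; −0.29 to 0.09 over the libraries left out), for PPARA with the length offset (−0.00265), and for NR2F1 with limma-voom (0.19), with the replicate block (0.15) and on leaving out a library (−0.49 to 0.80), all without passing the test. Calls were gained with no filter by PPARA (0.95, adjusted p = 0.0156) and NR1D2 (0.64, adjusted p = 0.00865), and by RORB (3.27, adjusted p = 0.00933) and NR4A2 (2.97, adjusted p = 5.44e-04), which the filter had removed. That fit also changed standard errors, to 0.33 from 0.58 for PPARA and to 0.26 from 0.47 for NR1D1. For NR1I3 the standard error rose, to 0.65 from 0.50. Calls gained with no filter are thus a description only. Calls were also gained with the length offset by RORA (−1.72, adjusted p = 0.0202) and NR2C1 (0.60, adjusted p = 0.0470). NR2F2 (0.50, adjusted p = 0.117) and NR2C2 (−0.42, adjusted p = 0.0785) lost theirs with the length offset. NR1I3 lost its call with no filter (1.46, adjusted p = 0.0635) and with DESeq2 (1.44, adjusted p = 0.0965). With DESeq2, 5 targets of the liver X receptors and NR1H4 were higher in place of 2 with edgeR. The cause of these changes was not tested. Low counts limit RARB, RORA, NR1I3, HNF4G, NR2E3, NR2F1 and PPARG, whose fold changes have standard errors of 0.50 to 1.12.

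Same-numbered libraries of the labels did not deviate together, with correlations of −0.059, 0.132 and −0.076 across genes, so the numbers were not taken as pairs. With the replicate number as a block, 12 receptors were higher and 4 lower, as without it, and NR1D2 gained a call (0.60, adjusted p = 0.00667) that NR1I3 lost (1.39, adjusted p = 0.0917).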
